A study of Homo sapiens with 6 samples.

Results

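The genes described here are 8 transcription factors that set endodermal, lung and surface-epithelial identity: FOXA1, FOXA2, FOXA3, HNF4A, HNF4G, GATA6, NKX2-1 and GRHL3. They were taken by official symbol from a table of 19240 genes, and all 8 had a row. The study is about the adaptation of tumor cells to a lack of glucose. A549, an established human lung carcinoma line obtained from ATCC, was held for 48 h with 25 mM glucose (3 libraries) or without glucose (3 libraries, called glucose-free), and reads were counted at transcript 3' ends. Both groups are this 1 line with no genetic change named in the labels, and nothing says that a group's libraries came from separate cultures. The p-values therefore reflect the spread among these 6 libraries, part or all of which may be technical.

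FOXA proteins are pioneer factors: they bind their sites in closed chromatin and open them for other factors during formation of the gut tube, liver, pancreas and lung. HNF4A and HNF4G are nuclear receptors that bind the same type of DNA element and maintain liver and intestinal programs, and GATA6 is a zinc-finger factor of early endoderm and airway branching. NKX2-1 (also called TTF-1) defines the lung within the foregut and drives surfactant genes, and pathologists use it to recognise lung adenocarcinoma. GRHL3, of the Grainyhead-like family, acts in surface epithelium, where it controls barrier and junction genes.

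Of the 8 factors, 7 were detected in all 6 libraries and NKX2-1 was near the floor of detection. GRHL3 was 8.99-fold lower without glucose. It was the only factor whose change passed the test. Its counts without glucose were only 3, 6 and 9 in replicates 1, 2 and 3. It met the filter on low counts through its libraries with glucose alone. In such bulk RNA, fewer cells that express a gene and less of its RNA per cell cannot be told apart. FOXA2, which gave the most reads of the set, and HNF4A were lower in every library without glucose than in any with it, but neither passed. FOXA1, FOXA3, HNF4G and GATA6 had groups that overlapped. Levels are CPM, the usual library-size-relative counts, here with library sizes scaled by TMM, a correction for composition. The groups were compared by the quasi-likelihood test of edgeR over 11886 genes that passed a filter on low counts, and an adjusted p under 0.05 passed. By this test 0 factors were higher and 1 of 7 tested was lower without glucose, against 11.6% of all tested genes higher, 10.7% lower and 22.3% in either direction. For the factors, DESeq2 also called 0 higher and 1 lower. At an unadjusted edgeR p under 0.05, 1 of the 7 (HNF4G) was higher and 2 (FOXA2 and GRHL3) were lower. The median log2 fold change was −0.16 over the 7 tested factors and 0.02 over all tested genes. In 3 of the 7 (FOXA2, HNF4A and GRHL3) the groups did not overlap, and all 3 were lower; among all tested genes 40.4% had groups that did not overlap, and in 19.4% the libraries without glucose lay lower.

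**Figure D1:**
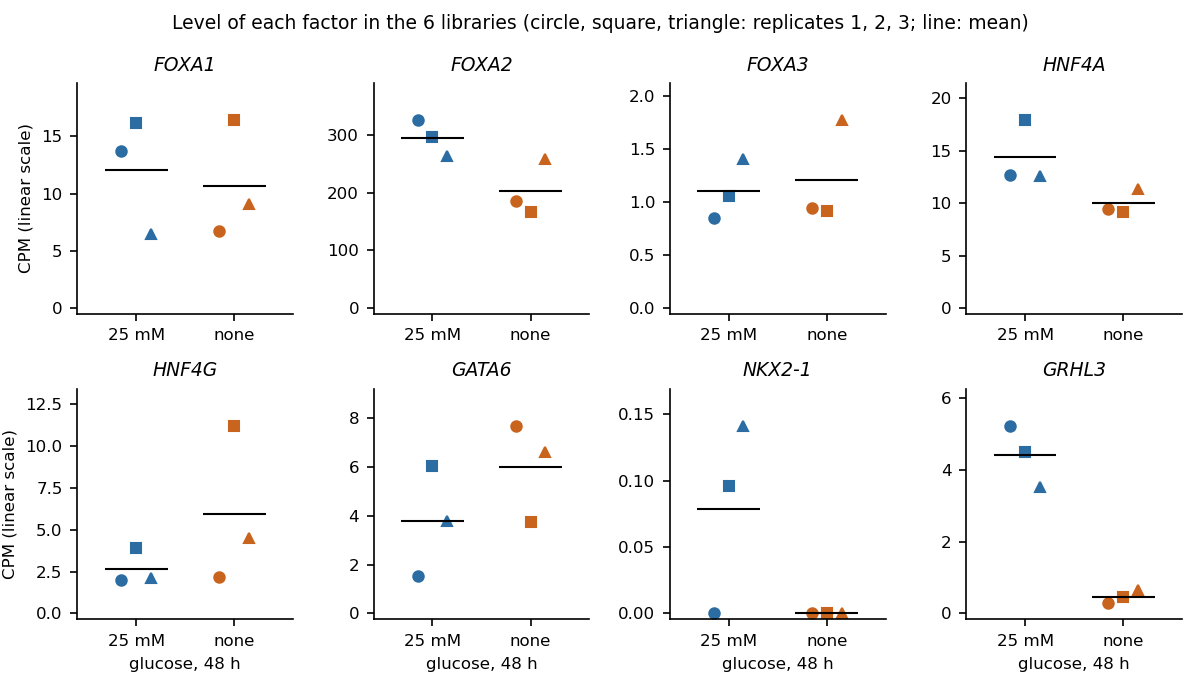
Level in CPM (linear axes, each from 0) of the 8 factors in the 3 libraries with 25 mM glucose (blue) and the 3 without glucose (orange); circle, square and triangle are replicates 1, 2 and 3, and the line is the group mean. GRHL3 lies between 3.52 and 5.23 CPM with glucose and between 0.284 and 0.663 CPM without it.

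Libraries held 6701004 to 14259943 gene counts, and 1 count stood for 0.0703 to 0.141 CPM. The epithelial identity of the line was visible in all 6 libraries: KRT7, KRT8 and KRT18, keratins of simple epithelium, had group means of 736 to 2090 CPM, while the epithelial adhesion genes EPCAM and CDH1 had group means of 3.09 to 7.87 CPM. Of the 6 epithelial markers 2 fell without glucose, against 10.7% of all tested genes, and 0 rose by edgeR, at an unadjusted p under 0.05 or by DESeq2. KRT8 fell from 2090 to 920 CPM and KRT18 from 1370 to 736 CPM (edgeR adjusted p = 0.0015 and 0.00473). The aldo-keto reductase gene AKR1B10 and the aldehyde dehydrogenase gene ALDH1A1, both abundant in this line, had group means of 1030 to 3770 CPM. Of the 8 A549 marker genes, 4 fell without glucose (ALDH3A1, AKR1C2, AKR1B10 and TM4SF1), against the same 10.7%, and 0 rose by edgeR, at an unadjusted p under 0.05 or by DESeq2. Of 8 fibroblast markers 2 were tested and both fell (THY1 and COL1A1), against the same 10.7% of all tested genes. The 8 summed to 21.0 to 32.6 CPM with glucose and 6.42 to 9.29 CPM without. COL1A2 and DCN had no count in any library. The 5 endothelial markers summed to at most 0.847 CPM, with KDR and VWF at a count of 0. The 6 blood markers summed to 1.06 to 1.69 CPM with glucose and 0 to 0.147 CPM without, most of it CD14, with CD3E and HBB among those at a count of 0. CD14, the only blood marker tested, fell (edgeR adjusted p = 0.0116) and met the filter through its libraries with glucose alone. The part of these marker differences in the results for the factors was not tested.

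FOXA2 (Entrez 3170) was at 325, 296 and 263 CPM in replicates 1, 2 and 3 with glucose. Without glucose it was at 185, 167 and 258 CPM. All 3 libraries without glucose lay below all 3 with glucose, though glucose-free replicate 3 (258 CPM) came close to the lowest library with glucose (263 CPM). The group means were 295 ± 30.9 and 203 ± 48.3 CPM (SD, n = 3 per group), a log2 fold change of −0.54 ± 0.22 (SE; 95% interval −1.01 to −0.06) that did not pass (edgeR adjusted p = 0.0942). Counting error was small here, about 1.84% to 2.03% per library, while the libraries of a group varied by 10.5% with glucose and 23.8% without (SD over mean). By read counts at 3' ends, which were not divided by transcript length, FOXA2 stood above 94.0% of tested genes.

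FOXA1 (Entrez 3169), which shares the forkhead DNA-binding domain and many sites with FOXA2, varied more within the groups than between them. Its levels were 13.7, 16.2 and 6.47 CPM with glucose and 6.73, 16.4 and 9.05 CPM without. The highest libraries of the groups were alike (16.2 and 16.4 CPM), as were the lowest (6.47 and 6.73 CPM), and the groups overlapped. The libraries of a group varied by 41.7% and 46.9%, against a counting error of 9.42% and 9.24%. The log2 fold change was −0.16 ± 0.38 (95% interval −0.98 to 0.66, edgeR adjusted p = 0.788), and it was 0.12 without replicate 2 with glucose and 0.08 without glucose-free replicate 1. FOXA3 (Entrez 3171), the member of the family best known from liver, was low, with 6, 11 and 20 counts with glucose and 10, 12 and 24 without. These are 0.847 to 1.41 CPM and 0.918 to 1.77 CPM. The 83 counts in all gave a log2 fold change of 0.11 ± 0.55, with an interval from −1.07 to 1.30 that does not exclude a change of 2-fold in either direction (edgeR adjusted p = 0.903). It was −0.03 without replicate 1 with glucose and −0.28 without glucose-free replicate 3.

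Shares of one family's counts do not depend on how libraries are scaled. FOXA1 made up 4.03%, 5.18% and 2.38% of the FOXA1, FOXA2 and FOXA3 counts in replicates 1, 2 and 3 with glucose. Without glucose it made up 3.50%, 8.90% and 3.37%. Glucose-free replicate 2 stood apart from the other 5 libraries, with an exact 95% binomial interval of 7.79% to 10.1% that lay above the other intervals. Such intervals cover counting error only. FOXA2 accounted for 90.6% to 97.1% of the family's counts in every library, and FOXA3 for 0.249% to 0.658%. The FOXA1 share averaged 3.87% ± 1.41 with glucose and 5.26% ± 3.16 without (SD, n = 3 per group; two-sided exact permutation p = 0.7, where the smallest p that 3 against 3 allows is 0.1). Without glucose-free replicate 2, the difference of 1.39 percentage points became −0.433.

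HNF4A and HNF4G had fitted changes of opposite sign, neither of which passed. HNF4A (Entrez 3172), the main form in liver, was at 12.7, 17.9 and 12.6 CPM with glucose. Without glucose it was at 9.48, 9.18 and 11.4 CPM. All 3 libraries without glucose were lower, replicate 3 by a small margin (11.4 against 12.6 CPM). The log2 fold change was −0.52 ± 0.24 (95% interval −1.04 to 0.00) and did not pass (edgeR adjusted p = 0.138).

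HNF4G (Entrez 3174), the form more prominent in gut, was at 1.98, 3.94 and 2.11 CPM with glucose. Without glucose it was at 2.18, 11.2 and 4.49 CPM. Glucose-free replicate 2 held 146 counts, more than any other library, and glucose-free replicate 1 lay within the range of the libraries with glucose. The log2 fold change of 1.15 ± 0.53 (95% interval 0.00 to 2.30) did not pass (edgeR adjusted p = 0.136). It rested on glucose-free replicate 2: without that library it was 0.31 (adjusted p = 0.705), and without replicate 1 of the same group it was 1.54 and passed (adjusted p = 0.0437). As a share of the HNF4A and HNF4G counts, HNF4G made up 13.5%, 18.1% and 14.4% with glucose. Without glucose the shares were 18.7%, 54.9% and 28.2%. The groups did not overlap, but the exact binomial interval of glucose-free replicate 1 (12.2% to 26.7%) covered all 3 shares measured with glucose. The mean share went from 15.3% ± 2.44 to 33.9% ± 18.8 (SD, n = 3 per group), with a two-sided exact permutation p of 0.1, the smallest this design can give (0.4 after Benjamini-Hochberg adjustment over the 4 family shares compared). Groups of 3 that do not overlap always give this p. The test was chosen after the values were seen, so it adds no support. The difference of 18.6 percentage points was 8.18 without glucose-free replicate 2.

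**Figure D2:**
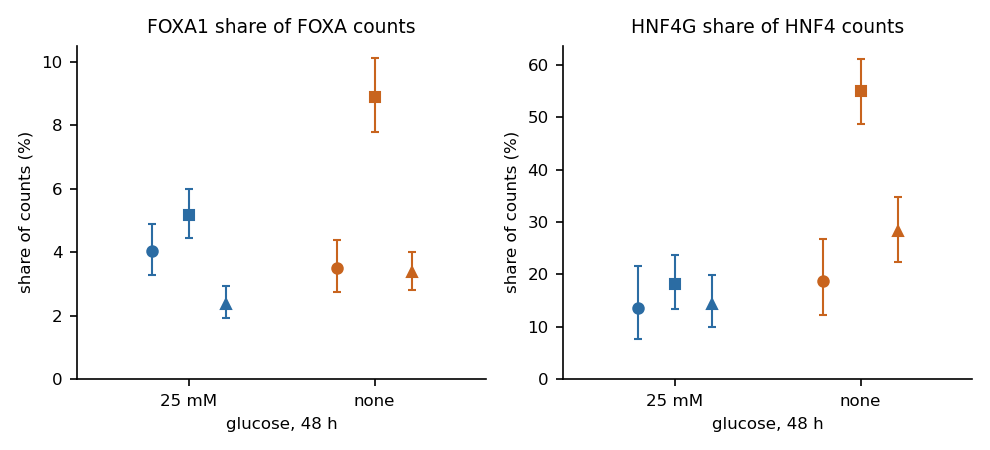
Share (%) of the FOXA1, FOXA2 and FOXA3 counts that fell on FOXA1 (left) and of the HNF4A and HNF4G counts that fell on HNF4G (right), per library, with exact 95% binomial intervals; blue is 25 mM glucose, orange no glucose, and circle, square and triangle are replicates 1, 2 and 3. Glucose-free replicate 2 is the highest library in both panels, at 8.90% and 54.9%.

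GATA6 (Entrez 2627) was at 1.55, 6.05 and 3.80 CPM with glucose. Without glucose it was at 7.68, 3.75 and 6.63 CPM. Replicate 1 with glucose was the lowest library, with 11 counts, and glucose-free replicate 2 lay below 2 of the libraries with glucose. The log2 fold change was 0.63 ± 0.44 (95% interval −0.32 to 1.57, edgeR adjusted p = 0.324), and it was 0.29 without replicate 1 with glucose and 1.09 without replicate 2 with glucose. Its relatives GATA4 and GATA5, which act with it in endoderm and heart, had lower group means. GATA4 was above GATA6 in replicate 1 with glucose (1.69 against 1.55 CPM). It ranged from 0.0948 to 1.69 CPM with overlapping groups, and GATA5 from 0.141 to 1.52 CPM, below the filter. GATA3, a factor of luminal epithelium and T cells, had a mean of 34.0 ± 7.32 CPM with glucose and 45.2 ± 8.75 CPM without, and did not pass (edgeR adjusted p = 0.212).

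NKX2-1 (Entrez 7080) was the 1 factor absent from this line to within the floor of 3 counts. It had 0, 1 and 2 counts in replicates 1, 2 and 3 with glucose and a count of 0 in each library without glucose. A count of 0 allows up to 3 counts, or 0.221 to 0.284 CPM in the libraries without glucose and 0.424 CPM in replicate 1 with glucose, so no difference between the groups could be detected. SFTA3, a surfactant-associated gene next to NKX2-1 in the genome, had no count in any library. Of 24 lung epithelial differentiation genes in the table, 8 were tested, 8 had some counts but fell below the filter and 8 had a count of 0 in all 6 libraries. SFTPC, which encodes surfactant protein C of alveolar type 2 cells, SCGB3A2, a secretoglobin of airway cells, and AQP5, a water channel of alveolar type 1 cells, were at 0. SFTPA1 and SFTPA2 were also at 0, but these near-identical genes can lose reads that align to both. SFTPB, which encodes surfactant protein B, had 4 to 13 counts per library (0.384 to 0.914 CPM). NAPSA, a protease that processes surfactant protein B, had 0 to 6 counts per library. Not all genes of the list were low: CAV1 was at 773 to 1120 CPM over the 6 libraries, with groups that overlapped.

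Among the lung genes tested, 1 rose, 0 fell and 7 did not pass by edgeR, so 12.5% were called against 22.3% of all tested genes; at an unadjusted p under 0.05, or by DESeq2, 0 were lower. LAMP3, a lysosomal membrane glycoprotein of alveolar type 2 cells and mature dendritic cells, had 0, 0 and 1 counts with glucose. Without glucose it had 82, 90 and 97 counts. It was thus close to absent in one group and at 6.88 to 7.77 CPM in the other, a ratio of pooled counts of 229 (exact 95% interval 40.8 to 9090, counting error only; edgeR adjusted p = 3.1e-05). Only its libraries without glucose met the filter. ABCA3, the lipid transporter of lamellar bodies, went from 14.7 ± 0.525 to 22.1 ± 2.52 CPM with groups that did not overlap and did not pass (edgeR adjusted p = 0.0581). LPCAT1, which makes surfactant phospholipid, was at 24.4 ± 3.44 and 60.8 ± 53.3 CPM, with glucose-free replicate 1 far above the rest, and did not pass either (edgeR adjusted p = 0.0562). Its log2 fold change of 1.31 rested on that library: without it the value was 0.30 (adjusted p = 0.381). It passed on leaving out glucose-free replicate 2 or 3 (adjusted p = 0.0214 and 0.0339), with library totals as scaling (0.0398) and with no filter on low counts (0.0154). CTSH, a cathepsin that also processes surfactant protein B, had a log2 fold change of 0.36 ± 0.23.

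GRHL3 (Entrez 57822) was at 5.23, 4.51 and 3.52 CPM with glucose. Without glucose it was at 0.284, 0.459 and 0.663 CPM. The highest library without glucose (0.663 CPM, 9 counts) lay far below the lowest with glucose (3.52 CPM, 50 counts). The group means were 4.42 ± 0.859 and 0.469 ± 0.189 CPM (SD, n = 3 per group), a log2 fold change of −3.17 ± 0.49 (95% interval −4.23 to −2.11), or 8.99-fold higher with glucose, with an edgeR adjusted p of 8.75e-04. Pooled over each group the counts were 134 and 18, a ratio of 0.115 without glucose relative to glucose (exact 95% interval 0.0659 to 0.188). GRHL3 met the filter through its libraries with glucose alone; in those without glucose it stayed below the 0.838 CPM that the filter asks for. The call held in all 12 alternatives, with log2 fold changes from −3.50 to −2.94 and adjusted p from 1.35e-07 to 0.00559.

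**Figure D3:**
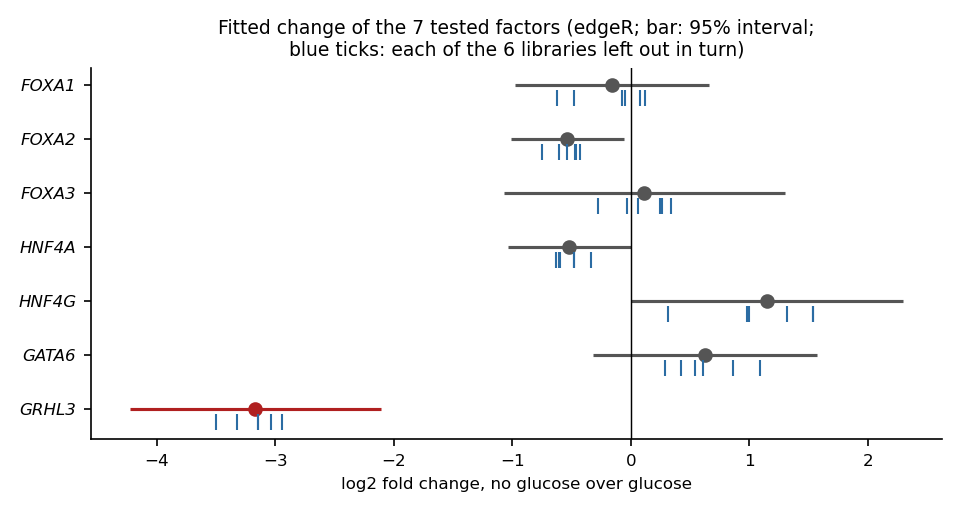
Log2 fold change, no glucose over glucose, of the 7 factors that were tested, with 95% intervals from the edgeR fit (bars) and the value with each of the 6 libraries left out in turn (blue ticks); the red point passed at an adjusted p under 0.05. GRHL3 is the only factor in red, at −3.17, and the tick of HNF4G nearest to 0 is the value of 0.31 without glucose-free replicate 2.

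The other Grainyhead-like genes and the more distant TFCP2 ranged from a count of 0 to levels above that of GRHL3. GRHL2, the member usually found in lung epithelium, had a count of 0 in all 6 libraries. GRHL1 had 3 to 15 counts per library (0.288 to 1.69 CPM), with overlapping groups and a log2 fold change of 0.20 ± 0.72. Without glucose its range (0.442 to 1.42 CPM) overlapped that of GRHL3. TFCP2, a more distant relative expressed in most tissues, was at 22.5 ± 4.93 and 25.2 ± 1.40 CPM. Genes of epithelial junctions and barrier that Grainyhead-like factors are known to control were mostly sparse: of 23 with a row, 7 were tested, and 7 had a count of 0, among them ESRP2, OVOL2 and IVL. Of those tested 1 rose, 0 fell and 6 did not pass by edgeR, so 14.3% were called against 22.3% of all tested genes, and 0 were lower at an unadjusted p under 0.05 or by DESeq2. CLDN4, a tight junction claudin, was at 0.847, 0.480 and 0.914 CPM with glucose and at 3.79, 3.52 and 6.18 CPM without. It rose with a log2 fold change of 2.57 ± 0.47 (edgeR adjusted p = 0.00236). CLDN3, a related claudin, was at 1.94 ± 1.38 and 5.33 ± 0.514 CPM and did not pass (edgeR adjusted p = 0.0622; 0.0311 with no filter on low counts and 0.0295 with DESeq2). ARHGEF19, an exchange factor gene that GRHL3 controls in wound repair, had a log2 fold change of 0.67 ± 0.38, and CDH1, E-cadherin, one of 0.42 ± 0.27. In these 4 of the 7 tested genes the groups did not overlap and the glucose-free libraries were higher, as in 21.0% of all tested genes. The rest of those tested, ELF3, EPCAM and RHOV, had groups that overlapped, with log2 fold changes of 0.22, −0.43 and −0.52. Whether GRHL3 bears on any of these genes was not tested.

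Beyond the 8 factors, 55 related lineage transcription factors were listed, of which 37 were tested. Of these 2 rose, 8 fell and 27 did not pass. Thus 27.0% were called, most of them lower, against 22.3% of all tested genes (11.6% higher and 10.7% lower). This list was written with earlier results of these data known, and the shares carry no test. Another 8 were below the filter, 2 had 3 counts or fewer and 8 had a count of 0, among them FOXF1, PDX1, TBX4 and TBX5. SOX2, a factor of proximal airway and stem cells, was at 63.3, 75.2 and 72.6 CPM with glucose and at 19.6, 17.5 and 16.0 CPM without. Its groups were far apart, with a log2 fold change of −1.99 ± 0.20 (edgeR adjusted p = 7.32e-05). EHF, an ETS factor of epithelium, fell with a log2 fold change of −2.40 ± 0.42, from 4.56 ± 0.581 to 0.848 ± 0.206 CPM. Without glucose it had 7, 14 and 11 counts, and only 1 of these libraries reached the level that the filter asks for. SPDEF, an ETS factor of goblet cells, fell with −1.92 ± 0.42. KLF5, a Krüppel-like factor of proliferating epithelium, fell with −1.14 ± 0.19, and the nuclear receptor NR2F1 with −1.56 ± 0.27. The others that fell were ID3 and ID1, which block helix-loop-helix factors, and TBX2, a T-box factor of lung growth, with log2 fold changes of −1.18, −0.78 and −1.05. ID1 missed the threshold without either replicate 1, without replicate 2 with glucose and without glucose-free replicate 3 (adjusted p from 0.0888 to 0.118), and TBX2 missed it without the last of these (0.0538).

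The 2 related factors that rose were FOXP1 and ETV5. FOXP1, a forkhead factor of airway epithelium, went from 57.6 ± 8.86 to 129 ± 20.7 CPM (log2 fold change 1.16 ± 0.21). ETV5, an ETS factor of alveolar type 2 cells, had a log2 fold change of 1.22 ± 0.39 (edgeR adjusted p = 0.042) with groups that overlapped. Its call was lost without any 1 library with glucose (0.0538 to 0.134) and without glucose-free replicate 1 (0.53, adjusted p = 0.226). CEBPA, a leucine-zipper factor of liver and alveolar maturation, was at 4.98 ± 1.69 and 9.01 ± 2.39 CPM (edgeR adjusted p = 0.0733). SOX9, a factor of the distal lung bud, was at 46.9 ± 1.53 and 48.7 ± 6.45 CPM. FOXP1, ETV5, SPDEF, ID3, ID1, TBX2 and the genes named as relatives of a factor were chosen after their values were seen.

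Few genes of proteins that work with these factors were called. Of 23 tested coregulators 0 rose, 1 fell and 22 did not pass, 4.35% called against 22.3% of all tested genes; their median log2 fold change was 0.03. DESeq2 also called 0 higher, and it called 2 lower. At an unadjusted edgeR p under 0.05, 1 (NCOA1) was higher and 2 (TLE3 and LMO4) were lower. TLE3, a Groucho-type corepressor that forkhead factors can recruit, fell from 17.8 ± 2.07 to 7.74 ± 1.43 CPM (log2 fold change −1.21 ± 0.24, edgeR adjusted p = 0.00394). LMO4, a LIM-domain adaptor, had −0.62 ± 0.21 and did not pass (edgeR adjusted p = 0.0516), though it did with either other scaling (0.0455 and 0.0317), with DESeq2 (0.0201), without replicate 1 with glucose (0.0382) and without glucose-free replicate 1 (0.0350). The steroid receptor coactivators NCOA1 and NCOA2 had log2 fold changes of 0.46 ± 0.21 and 0.57 ± 0.27; NCOA2 passed without glucose-free replicate 3 (0.0433). PPARGC1A, which coactivates HNF4A in fasting liver, NR0B2, a repressor of HNF4A, and ZFPM2, a GATA partner, had a count of 0 in every library.

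Genes of liver and gut that HNF4 and FOXA factors are known to bind mostly had too few reads to test, and most of the tested ones that changed were lower without glucose. Of 36 with a row, 12 were tested, 12 were below the filter, 5 had 3 counts or fewer and 7 had a count of 0, among them APOB, APOC3, TF and FABP1. Of the 12 tested 1 rose, 5 fell and 6 did not pass, so 50% were called against 22.3% of all tested genes (11.6% higher and 10.7% lower). Their median log2 fold change was −0.85, against 0.02 over all tested genes. This list was written with earlier results of these data known, so its share above that of all genes is no support. The 3 fibrinogen chains are among the 5 that fell. TM4SF4, a membrane protein of liver and gut, fell from 71.5 ± 4.71 to 9.31 ± 1.27 CPM (log2 fold change −2.94 ± 0.21, edgeR adjusted p = 1.29e-05). FGB, FGA and FGG, the 3 fibrinogen chains, fell with log2 fold changes of −2.89 ± 0.33, −1.41 ± 0.29 and −1.30 ± 0.25. APOH, a phospholipid-binding plasma protein, fell with −2.29 ± 0.42, and with −2.99 when glucose-free replicate 2 was left out. AGR2, a disulfide isomerase of mucus-secreting cells that works in the endoplasmic reticulum, rose from 268 ± 12.3 to 687 ± 113 CPM. HNF4A and FOXA2 were 1.43-fold and 1.45-fold higher with glucose in the same libraries, differences that did not pass. Whether they bear on these genes was not tested. FGA and FGG were named after their values were seen.

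**Figure D4:**
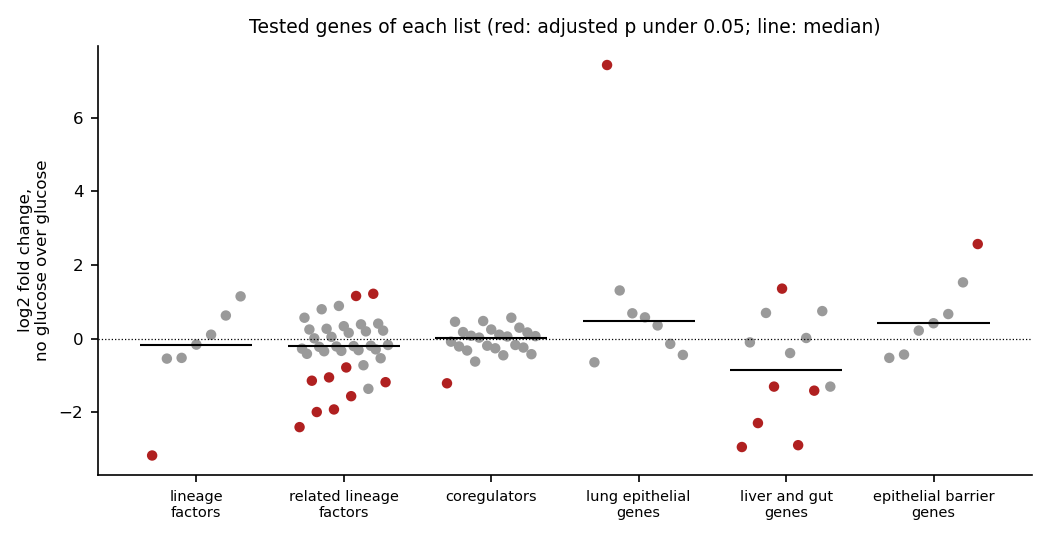
Log2 fold change, no glucose over glucose, of each tested gene in the 8 lineage factors and in 5 lists of related genes; red points passed at an adjusted p under 0.05, grey points did not, and the line is the median. The lineage factors have 1 red point (GRHL3), the coregulators 1 (TLE3), and the liver and gut genes have 6, of which 5 are below 0.

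The genes with the most similar profiles were found for each tested factor, as the root mean square difference in centred log2 CPM over the 6 libraries among 11142 other genes that averaged 20 or more counts per library (11143 for FOXA3). The pattern of GRHL3 was closest to CYP24A1, the vitamin D 24-hydroxylase, to CXCL1, a chemokine that attracts neutrophils, and to CDCA3, a regulator of mitotic entry, at differences of 0.131, 0.140 and 0.185, against 1.19 for the spread of GRHL3 itself. CYP24A1, CXCL1 and CDCA3 fell with log2 fold changes of −2.13, −2.28 and −2.16, weaker than the −3.17 fitted for GRHL3. The 0.5 added to CPM before the log is about as large as the GRHL3 levels without glucose (0.284 to 0.663 CPM). It therefore shrinks the change of GRHL3 in this comparison, and the small differences depend on it. FOXA2 was closest to GEMIN5, CHCHD1 and SDHAF1 (0.0235 to 0.0783), HNF4A to ZNF775, BDH1 and PALB2 (0.0634 to 0.0844), and FOXA3 to WDR31, LSM14A and ZNF773 (0.0453 to 0.0957). N4BP1 and ZNF304 were among the nearest genes to FOXA1 (0.131 and 0.152), and CDADC1 and HHAT among those to GATA6 (0.124 and 0.141). HNF4G had the least close neighbours, FIG4, MAP1LC3A and PPP1R3E (0.275 to 0.354). These distances describe 6 libraries and carry no test.

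By reads at 3' ends, not divided by length, the order of the factors differed between the groups mainly in GRHL3. FOXA2 had at least 167 CPM in every library, above every other factor in any library (at most 17.9 CPM). HNF4A and FOXA1 came next, with means over the 6 libraries of 12.2 and 11.4 CPM and ranges that overlapped. GATA6 and HNF4G followed at 4.91 and 4.31 CPM. Their ranges overlapped with each other and, through their highest libraries (7.68 and 11.2 CPM, both glucose-free), with that of FOXA1. GRHL3 lay among these with glucose (4.42 CPM) and below FOXA3 without it (0.469 against 1.21 CPM), where its highest library (0.663 CPM) was under the lowest of FOXA3 (0.918 CPM). NKX2-1 was last in both groups.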

How the data were processed

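The authors deposited raw read counts per gene, 1 column for each of 6 libraries. Per the submitters' processing notes the authors used STAR, HTSeq and build hg19; which versions, annotation and strand setting were used is not given in the sources, so a gene and an antisense partner cannot be told apart. Per the labels' protocols, cDNA was primed with oligo-dT and amplified by PCR; no molecular identifiers are mentioned. The HTSeq summary lines (55.3% to 56.9% of each column) stayed out. They include reads in no annotated gene (32.8% to 36.5%) and reads not aligned uniquely (18.4% to 22.2%). A count of 0 therefore does not show that a gene was silent. Symbols came from RefSeq (GRCh38.p14) for 19178 of 19240 genes, and no coordinates are given because the builds differ.

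Libraries were grouped by title and compared with edgeR 4.0.16 (glmQLFTest, two-sided, TMM, filterByExpr at a minimum count of 10, Benjamini-Hochberg over 11886 genes). The code was checked on simulated data with the same dispersion for every gene. That does not show how the test performs at the spread of these libraries. SE, worked back from the F statistic, is approximate. Alternatives were RLE scaling, library totals, 2 other filters, DESeq2 1.42.0, a replicate block and leaving out each library. Profiles were compared as log2 of CPM plus 0.5 among genes averaging 20 counts or more. Chi-square per degree of freedom between libraries of a group was 22.1 to 57.3, so none were merged. The members, lists and tests were chosen with earlier results of these data known. Named genes are the 8 factors, the 4 of each list with the smallest p, and the 3 nearest profiles per factor. PVRL4 (an older name of NECTIN4) and MUC5AC were not matched; ELF3, FOXJ1, EPCAM and CDH1 stand in 2 lists each. LINC00261, GATA6-AS1, HNF4A-AS1, NKX2-1-AS1 and HNF4GP1 were not analysed here, and a few nearest profiles and list members are not reported here.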

Additional observations from a re-analysis of the deposited data

How the results depend on the processing

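GRHL3 fell in all 12 alternatives, and FOXA2, HNF4A and GATA6 kept their direction and stayed short of the threshold in all 12. The number of factors called lower was 1 throughout, and the number called higher was 0 except for 1 (HNF4G) without glucose-free replicate 1, so 0 to 1 when 1 library was left out. The log2 fold change of HNF4G then ran from 0.31 to 1.54, FOXA1 from −0.62 to 0.12 and FOXA3 from −0.28 to 0.34; FOXA3 has no value at a mean of at least 20 counts, which it does not reach. Over all genes, 858 to 1292 were called higher and 781 to 1232 lower, against 1376 and 1276 with all libraries. Related factors called higher were 1 to 2 and coregulators called higher 0 to 1; coregulators called lower and lung genes called higher were each 1 to 2. Beyond left-out libraries, 2 coregulators fell with RLE scaling, library totals or DESeq2, 2 lung genes rose with library totals or no low-count filter, 2 barrier genes rose with no low-count filter or DESeq2, and 1 related factor rose with a replicate block. With library totals, 45.2% of called genes were higher, against 51.9%. In each case the cause was not tested. With the replicate block, 984 genes were higher and 911 lower, GRHL3 kept its call (adjusted p = 0.00279), and ETV5 and ID1 did not pass (edgeR adjusted p = 0.0796 and 0.0684). Same-numbered libraries did not deviate together (correlations −0.298, −0.14 and 0.0421), so the numbers were not taken to pair them. The family shares, their permutation tests and their values without 1 library were chosen after seeing the data. Depth limits NKX2-1 and FOXA3 most, with 3 and 83 counts in all.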
